A study of Rattus norvegicus with 44 samples.

Results

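The kidneys of rats given 500 mg/kg of crude 4-methylcyclohexanemethanol (MCHM), an industrial coal-washing chemical, were compared with the kidneys of rats given the corn oil vehicle. The members were the 3 kidney arrays whose title gives 500 mg/kg and the 3 whose title gives 0 mg/kg, 6 of the 44 arrays in the series. All rats were male Hsd:Sprague Dawley SD animals without a genetic modification named in the labels, on NTP-2000 diet, and 6 to 8 weeks old when they were assigned to groups. The compound was gavaged in corn oil at 5 mL/kg on 5 consecutive days and the rats were killed on the day after the final dose. The vehicle group (0 mg/kg) shared the route, the volume, the diet and the schedule. Kidneys at 0.1, 1, 10, 100 and 300 mg/kg (11 arrays) and livers at 500 mg/kg and vehicle (4 arrays each) were used for comparison. The 11 kidney arrays also entered the estimate of spread behind the standard errors and p-values. The kidney difference minus the liver difference was fitted to all 44 arrays. Each array is titled a biological replicate, but whether it held RNA of 1 rat is not stated, nor is the hour of killing or the kidney region sampled. Values are log2 expression levels from Affymetrix Rat Genome 230 2.0 arrays after robust multi-array averaging (RMA), so a difference of 1 is a doubling.

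The kidney takes up small organic molecules from the blood through the anion and cation carriers of the proximal tubule, oxidises and conjugates them, and secretes them into urine. The proximal tubule also reabsorbs filtered protein into lysosomes, whereas the thick limb, the collecting duct and the papilla set the salt and water content of urine. A toxic dose typically raises genes of damaged or repairing tubules, of which Havcr1 (kidney injury molecule), Lcn2 (neutrophil gelatinase-associated lipocalin), Clu (clusterin) and Spp1 (osteopontin) are the standard transcripts. Kidney cells also carry a circadian clock, so levels of its genes depend on the time at which tissue is taken.

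The arrays carried kidney RNA. Umod, the thick limb glycoprotein uromodulin, had a median of 13.16 in the 17 kidney arrays and 4.98 in the liver arrays, and Kap, the androgen-regulated proximal tubule protein, had 14.53 against 5.97. The liver genes Alb and Apoa1 had kidney medians of 4.62 and 3.08 against 14.70 and 13.32 in liver, but the first 1 mg/kg kidney array read 11.06 for Alb and 6.23 for Apoa1. Vehicle replicate 2 went against its male label for the transcript Xist, which is made from the inactive X chromosome of female cells: its 4 probe sets read 9.33, 8.32, 7.74 and 6.95 in that array and 2.16 to 3.02 in the other 16 kidney arrays. The Y-linked gene Eif2s3y read 10.02 in the same array, against 9.35 to 9.94 in the others. No pair of arrays held identical values.

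The vehicle arrays did not sit together. Across all probe sets vehicle replicate 1 correlated at 0.9931 to 0.9953 with the dosed arrays and at 0.9889 and 0.99 with vehicle replicates 2 and 3. On the first principal component of the kidney arrays, which held 24.3% of the variance, vehicle replicates 2 and 3 scored 35.3 and 25.3. Vehicle replicate 1 scored -13, next to -13.4, -16.7 and -24 for the 3 dosed arrays. Kidneys at the other doses scored from -16.8 to 39.6, both ends at 300 mg/kg, with -5.7 and -14.7 at 0.1 mg/kg. The component thus did not divide vehicle from dosed kidneys. Each result below was therefore also computed without each array in turn.

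At 500 mg/kg no probe set passed a Benjamini-Hochberg adjusted p of 0.05 in limma (0 of 31042, 0% called), and the smallest adjusted p was 0.326. Every difference described for this comparison is thus a measured value that did not pass the test. At an unadjusted p of 0.05, 3131 probe sets (10.1%) were below the threshold, against 1552.1 for uniform p-values. Probe sets are not independent of each other, so this count does not measure an effect of the dose. At 300 mg/kg against the same vehicle arrays it was 1123 (3.62%). Over the 14217 named genes at 500 mg/kg, 426 were higher (3%) and 1073 lower (7.55%) at that threshold. Of these 14217 genes 61.2% had a difference below 0, with a median of -0.04. The 3 dosed arrays lay above all 3 vehicle arrays for 2173 probe sets (7%) and below them for 2734 (8.81%). Of the named genes, 2454 of 14217 (17.3%) had no overlap between the groups, a share that applies wherever a gene below is given without overlap. The median standard error of a difference was 0.125 on the log2 scale.

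Without vehicle replicate 1, 616 probe sets passed (1.98%), 495 higher (1.59%) and 121 lower (0.39%) at 500 mg/kg. Leaving out vehicle replicate 2 or 3, or any of the dosed arrays, gave 0, with 1686 to 3053 below an unadjusted p of 0.05. The array weights of limma, which count discordant arrays less, gave 424. Whether vehicle replicate 1 or the other 2 vehicle arrays stand for undosed kidney was not tested.

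The 8 lower genes with the smallest p are described first. Dio1, the deiodinase that makes active thyroid hormone in kidney and liver, read 7.88, 7.68 and 7.98 in vehicle and 7.13, 7.05 and 7.23 at 500 mg/kg. All dosed arrays lay below all vehicle arrays, a difference of -0.71 (SE 0.131, 95% interval -0.99 to -0.43, adjusted p 0.326), or 0.611 times the vehicle level. Castor1, a cytosolic arginine sensor upstream of mTORC1, read 7.99, 7.80 and 7.90 in vehicle and 7.33, 7.39 and 7.12 at 500 mg/kg, again with no overlap. Coq10a, a coenzyme Q binding protein of mitochondria, read 7.72, 7.85 and 7.87 in vehicle and 7.37, 7.31 and 7.26 at 500 mg/kg. Its groups were the tightest of these genes apart from Cks1b, with an SD of 0.079 in vehicle and 0.057 at 500 mg/kg (n = 3 each).

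Gdf15, a secreted stress-responsive cytokine of the transforming growth factor family, had the largest difference of the 8, -1.31 (95% interval -1.83 to -0.79, adjusted p 0.326). It read 7.18, 7.92 and 8.35 in vehicle and 6.68, 6.38 and 6.46 at 500 mg/kg. The spread lay in the vehicle group, whose lowest array was replicate 1. Dnajb9, a co-chaperone of the endoplasmic reticulum, read 8.59, 8.88 and 8.84 in vehicle and 8.15, 8.17 and 8.33 when dosed. Erf, an ETS-family transcriptional repressor, read 8.03, 8.22 and 8.25 in vehicle and 7.80, 7.59 and 7.71 when dosed. For both genes the 2 groups were separate and vehicle replicate 1 was the vehicle array nearest to the dosed ones. Cks1b, a subunit that binds cyclin-dependent kinases, read 6.82, 6.86 and 6.97 in vehicle and 6.51, 6.42 and 6.46 when dosed. St6galnac4, a sialyltransferase, read 8.12, 8.34 and 8.31 in vehicle and 7.70, 7.77 and 7.51 when dosed, and 1 of its 2 other probe sets differed in the opposite direction.

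The 8 genes that were higher with the smallest p included dim ones and ones with a wide vehicle group. Sh3gl2, an endophilin of vesicle uptake, read 3.88, 3.55 and 3.87 in vehicle and 4.34, 4.16 and 4.42 at 500 mg/kg, a difference of 0.54 (95% interval 0.32 to 0.77, adjusted p 0.326). Its other probe set differed in the opposite direction. Pde1a, a calmodulin-dependent phosphodiesterase, read 4.75, 3.83 and 3.96 in vehicle and 4.87, 5.86 and 5.25 when dosed. Clip1, a protein of growing microtubule ends, read 6.99, 6.26 and 6.39 in vehicle and 7.39, 7.23 and 7.28 when dosed. In both genes vehicle replicate 1 was the highest vehicle array and lay close to the lowest dosed array. Ccdc127, which had the largest difference of the 8 (1.25, SE 0.279), showed the same order, with 7.01, 5.91 and 5.89 in vehicle and 7.68, 7.46 and 7.43 when dosed. Eps8l1, Znf780b, Bend5 and Tanc2 were 0.57, 0.47, 0.56 and 0.70 above vehicle, each without overlap between the groups and with an adjusted p of 0.36.

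**Figure D1:**
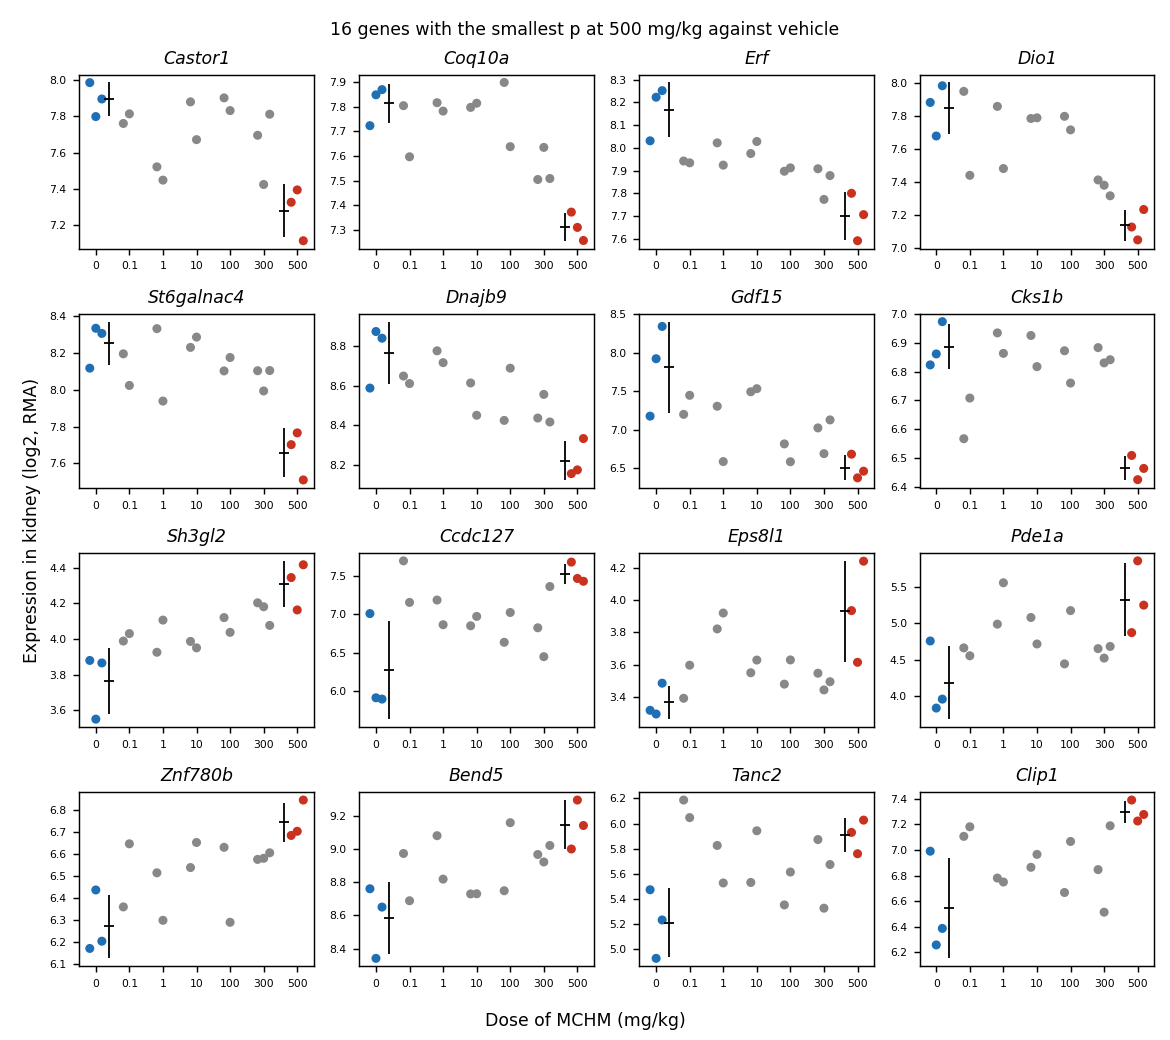
Expression of the 16 genes with the smallest p in the 17 kidney arrays (log2, RMA) against the dose of MCHM (mg/kg, equally spaced); blue points are vehicle, red points 500 mg/kg, grey points the other doses, and black marks the mean with SD (n = 3). The red points lie apart from the blue points in every panel, while grey points reach the red range for Erf, Gdf15, Tanc2 and others.

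A separation from all 14 other kidney arrays, vehicle and lower doses together, was rarer. The 3 dosed arrays lay below all 14 for 99 of 14217 genes (0.696%) and above all 14 for 25 (0.176%). Of the 16 genes above, 8 were among these: St6galnac4, Coq10a, Dnajb9, Dio1, Cks1b and Castor1 below, and Clip1 and Znf780b above. These genes were looked up after their values were seen, and vehicle was among the 14 arrays, so the counts describe and do not test. The widest gap below belonged to Mylk3, a myosin light chain kinase, at 5.25, 4.44 and 5.14 when dosed, against 5.50 to 7.29 (median 6.30) in the other arrays. Vkorc1l1, a relative of the vitamin K epoxide reductase, read 6.18, 6.15 and 6.15 against 6.41 to 6.95. The widest gap above belonged to Dnase1, the secreted deoxyribonuclease, at 11.52, 11.39 and 11.40 against 10.39 to 11.26 (median 10.88).

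Of genes driven by the fatty acid receptor PPARA, Cyp4a3, a fatty acid omega-hydroxylase, and Pex11a, a peroxisome division factor, were the 2 of 33 measured that lay above all 14 other arrays. Over all genes 25 of 14217 (0.176%) did so, and the gap was 0.044 for both Cyp4a3 and Pex11a. Cyp4a3 read 11.42, 11.43 and 11.47 when dosed, against 10.84 to 11.38 elsewhere, and its highest other array was vehicle replicate 1. Its difference from vehicle was 0.34 (SE 0.116, adjusted p 0.378), and that of Pex11a was 0.45 (SE 0.195, adjusted p 0.46). Over the 33 genes, 21 were above 0 (38.8% of all genes), with a median of 0.01 against -0.04 for all genes. At the unadjusted threshold 4 were higher and 1 lower (3% and 7.55% of all genes). Against the 0.1, 1 and 10 mg/kg kidneys the list leaned the other way, with 20 of 33 below 0 (61.5% of all genes) and a median of -0.03. There 1 was higher and 4 lower at the unadjusted threshold (1.77% and 8.22% of all genes). None passed the adjusted test.

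Among the genes of the circadian clock Nr1d1 and Dbp were lower and Cry1 and Bmal1 higher, none past the test. In the clock, Bmal1 and its partners activate genes through the E-box, among them Nr1d1 and Nr1d2 (the REV-ERB receptors), which in turn repress Bmal1 through the ROR element. Promoter windows of 3 of these genes are shown to place those elements before the values are given, with the motif in capitals (TAGGTCA for Bmal1, CACGTG for the others, either strand searched). They are written 5′ to 3′ on the strand of the gene, from RefSeq on GRCr8.
Bmal1, chr1:176766228-176766327, plus strand: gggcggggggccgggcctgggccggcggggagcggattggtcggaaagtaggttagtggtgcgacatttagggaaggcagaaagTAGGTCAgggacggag
Nr1d1, chr10:84229593-84229692, minus strand: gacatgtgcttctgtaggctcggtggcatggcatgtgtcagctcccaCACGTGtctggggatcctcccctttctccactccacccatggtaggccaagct
Tef, chr7:115206582-115206681, plus strand: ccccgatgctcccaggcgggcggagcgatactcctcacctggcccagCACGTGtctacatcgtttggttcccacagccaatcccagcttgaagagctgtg

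The ROR core begins 16 bases before the annotated start of Bmal1, and the E-box begins 191 bases before that of Nr1d1 (1 of its 2 listed starts) and 198 bases before that of Tef. In the 250 bases upstream of each of 33469 listed starts, TAGGTCA was found in 2.26% and CACGTG in 5.59%. A match describes the letters in the window and not occupancy.

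Of 19 clock genes measured, 3 were higher and 6 lower at the unadjusted threshold (3% and 7.55% of all genes), and none passed after adjustment. Against the 0.1, 1 and 10 mg/kg kidneys 2 were higher and 2 lower at that threshold (1.77% and 8.22% of all genes). Nr1d1 read 5.91, 6.45 and 7.02 in vehicle and 5.20, 5.49 and 5.76 at 500 mg/kg, a difference of -0.98 (SE 0.226, adjusted p 0.36). From the 0.1, 1 and 10 mg/kg kidneys its difference was -0.585 (SE 0.196), and the first 10 mg/kg array read 5.54, within the dosed range. At 300 mg/kg Nr1d1 was at -0.03 from vehicle. Dbp, a clock output activator of detoxication genes, read 7.18, 7.99 and 9.11 in vehicle and 6.57, 7.17 and 7.002 when dosed, a difference of -1.18 (adjusted p 0.364). Neither gene overlapped between the groups, although the highest dosed array for Dbp (7.17) and the lowest vehicle array (7.18, replicate 1) nearly met. The differences of Nr1d2 (-0.58) and Per3 (-0.49) came without overlap, whereas Tef (-0.57) and Cry2 (-0.33) overlapped.

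Other clock genes had values above vehicle. Cry1, a repressor that peaks apart from Nr1d1, read 6.56, 6.13 and 5.93 in vehicle and 7.21, 6.84 and 6.84 at 500 mg/kg, a difference of 0.76 without overlap (adjusted p 0.36). Bmal1 read 6.73, 6.02 and 5.29 in vehicle and 6.85, 6.40 and 6.70 when dosed, a difference of 0.64 with overlap (adjusted p 0.45). Hlf, a relative of Dbp, was higher by 0.75 without overlap, whereas Npas2 (-0.15) and Per2 (-0.13) had overlapping groups. The vehicle arrays differed among themselves along the same lines: replicate 3 had the highest Dbp and Nr1d1 and the lowest Bmal1 and Cry1 of the 17 kidney arrays, and replicate 1 lay nearest to the dosed arrays. Without vehicle replicate 1, Nr1d1 (adjusted p 0.00438), Dbp (0.0162), Bmal1 (0.0338) and Cry1 (0.041) passed. In that fit 117 of the 14217 named genes passed as higher and 92 as lower. Replicate 1 lay nearest to the dosed arrays for these clock genes, so leaving it out widens their differences by construction. In liver at the same dose Nr1d1 was at -0.95, Nr1d2 at -0.91, Cry1 at 0.62 and Dbp at -0.06, none past the test (adjusted p 0.677, 0.567, 0.626 and 0.981). The part of the hour of killing was not tested.

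**Figure D2:**
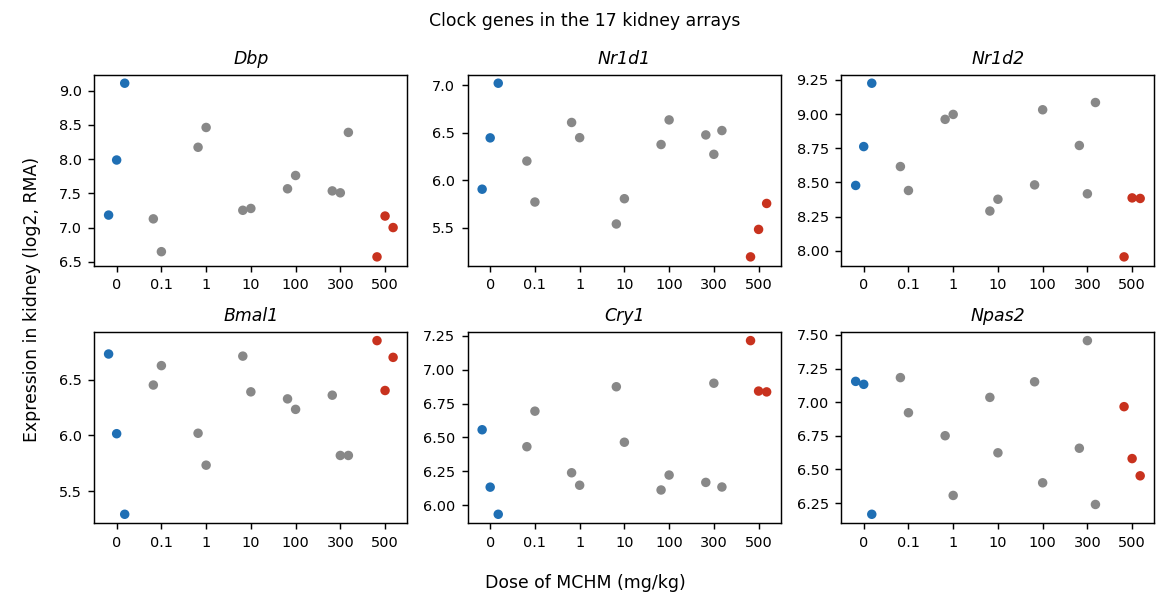
Expression of 6 clock genes in the 17 kidney arrays (log2, RMA) against the dose of MCHM (mg/kg, equally spaced), with vehicle in blue, 500 mg/kg in red and other doses in grey. The red points are below all blue points for Dbp, Nr1d1 and Nr1d2 and above them for Cry1; vehicle replicate 3, the right-hand blue point, is the extreme array for Dbp, Nr1d1, Bmal1 and Cry1.

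Lysosomal genes were uniformly but slightly lower. All 31 measured members had a difference below 0, against 61.2% of all genes, with a median of -0.15 and a range from -0.44 (Cd68) to -0.02 (Psap). At the unadjusted threshold 4 were lower (7.55% of all genes), and none passed after adjustment. Gla, the alpha-galactosidase, read 7.94, 8.11 and 8.08 in vehicle and 7.71, 7.53 and 7.88 at 500 mg/kg, without overlap (adjusted p 0.416). Glb1, the beta-galactosidase, read 10.97, 11.38 and 11.07 in vehicle and 10.98, 10.66 and 10.75 when dosed, and here dosed replicate 1 lay within the vehicle range. The mean over the lysosome list was 10.16, 10.35 and 10.22 in vehicle and 10.19, 10.01 and 10.03 when dosed, so the difference lay in dosed replicates 2 and 3. Papilla markers read high in the same arrays (6.14 and 6.38) and proximal tubule markers low (11.79 and 11.91). The second 100 mg/kg array had the highest papilla mean (6.46) and the lowest lysosome mean (9.96) of the 17, with a proximal tubule mean of 11.81; the part of tissue makeup in the lysosome values was not tested. Against the 0.1, 1 and 10 mg/kg kidneys 29 of 31 were below 0 (61.5% of all genes), with a median of -0.15.

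Markers of macrophages and dendritic cells were lower in the same direction. Of 20 measured, 16 were below 0 (61.2% of all genes), with 8 lower and 1 higher at the unadjusted threshold (7.55% and 3% of all genes) and a median of -0.22; none passed after adjustment. In whole tissue, fewer cells of a type and less RNA per cell cannot be told apart. Cd74, the invariant chain of antigen presentation, read 11.74, 11.94 and 11.54 in vehicle and 11.41, 11.26 and 11.35 at 500 mg/kg, a difference of -0.40 (SE 0.12, adjusted p 0.364). The complement genes C1qa, C1qb and C1qc, made by tissue macrophages, were at -0.37, -0.47 and -0.37. Each had no overlap between the groups, like 17.3% of all genes. Aif1 (-0.45) and Fcer1g (-0.43) also did not overlap, whereas Adgre1, the F4/80 antigen, did at -0.51. Cd163, a scavenger receptor of macrophages, was the exception at 0.35, from 3.04, 3.26 and 3.10 in vehicle to 3.58, 3.54 and 3.32 when dosed, levels near the bottom of the scale. Against the low doses 12 of the 20 were lower and 1 was higher at the unadjusted threshold (8.22% and 1.77% of all genes).

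The mean level of the macrophage list was 7.03, 7.19 and 7.12 in vehicle, 6.97, 6.98 and 6.75 at 500 mg/kg, 6.98 to 7.28 at the low doses, and 6.91 to 7.08 at 100 and 300 mg/kg, where 3 of the 5 arrays lay below dosed replicates 1 and 2. Lymphocyte and plasma cell markers had a median of -0.12 (14 of 18 below 0) and endothelial markers -0.10 (12 of 19 below 0, a share near the 61.2% of all genes). Pecam1 and Tie1, both of endothelium, lay below all 14 other kidney arrays at 500 mg/kg, like 0.696% of all genes. Of the endothelial markers 7 of 19 were above 0, the highest being Erg at 0.40. Tie1 read 6.09, 6.04 and 6.09 against 6.15 to 6.61 elsewhere.

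**Figure D3:**
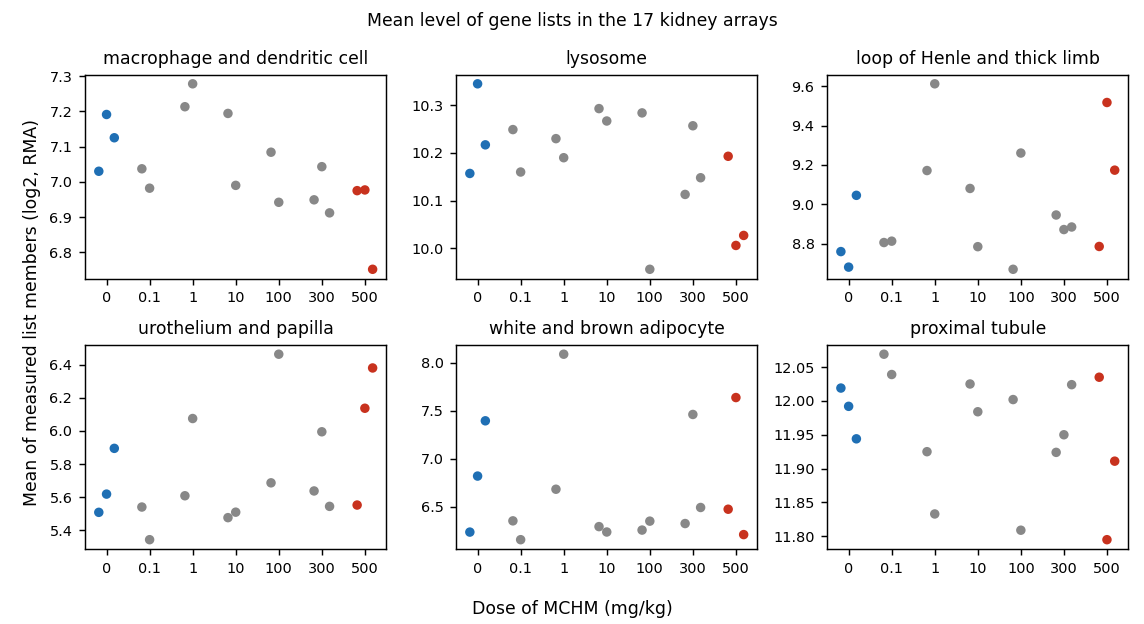
Mean log2 level of the measured members of 6 gene lists in the 17 kidney arrays against the dose of MCHM (mg/kg, equally spaced), with vehicle in blue, 500 mg/kg in red and other doses in grey. The dosed arrays lie below vehicle for the macrophage list, while in the thick limb and papilla panels dosed replicate 1 lies with vehicle and replicates 2 and 3 lie high.

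Markers of the thick limb and of the inner medulla read high in dosed replicates 2 and 3. The loop of Henle and thick limb list had a median of 0.28 (13 of 16 above 0, 2 higher at the unadjusted threshold). The urothelium and papilla list had a median of 0.29 (13 of 15 above 0, 2 higher and 2 lower). Over all genes 38.8% were above 0, with 3% higher and 7.55% lower at that threshold. No member passed after adjustment. Without single arrays these medians ranged from 0.10 to 0.49 (lowest without dosed replicate 2) and from 0.07 to 0.63 (lowest without dosed replicate 3), each highest without dosed replicate 1, and against the low doses they were 0.09 and 0.43. Single kidneys at lower doses read higher still: the thick limb mean was 9.61 in the second 1 mg/kg array, above the 8.79, 9.52 and 9.17 at 500 mg/kg, and the papilla mean was 6.46 in the second 100 mg/kg array, above the 5.55, 6.14 and 6.38 at 500 mg/kg. Aqp4, a water channel of the inner collecting duct, read 6.16, 5.55 and 6.97 in vehicle and 6.61, 8.17 and 8.27 when dosed (difference 1.46, SE 0.56, adjusted p 0.402). Psca, an antigen of urothelium, read 5.11, 5.19 and 5.71 in vehicle and 5.16, 7.33 and 7.81 when dosed. Slc14a2, the urea transporter of the inner medulla, read 2.82, 2.91 and 3.70 in vehicle and 2.99, 6.18 and 4.88 when dosed. In each of these 3 genes dosed replicate 1 lay within the vehicle range and replicates 2 and 3 above it.

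Other segments were mixed. Kcnj1, the ROMK potassium channel of thick limb and collecting duct, read 7.76, 6.97 and 7.24 in vehicle and 7.78, 8.55 and 8.23 when dosed, so that its lowest dosed array barely exceeded vehicle replicate 1. The collecting duct list had a median of 0.02, with 6 of 21 higher and 2 lower at the unadjusted threshold (3% and 7.55% of all genes). Its members Fxyd4 (1.17), Slc4a1 (0.82) and Avpr2 (0.54) did not overlap, while Krt7 lay below all 14 other kidney arrays at 9.72, 9.58 and 9.68. Proximal tubule markers had a median of -0.11 (18 of 26 below 0, against 61.2% of all genes). The list's mean per array spanned 11.94 to 12.02 in vehicle and 11.79 to 12.04 when dosed. The share of cortex and medulla in each sample was not tested.

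Carriers of the proximal tubule lay on both sides of 0. Of 34 organic anion, cation and drug carriers measured, 6 were lower and 1 higher at the unadjusted threshold (7.55% and 3% of all genes), with a median of -0.05 against -0.04 for all genes. Slco4a1, an organic anion carrier, was the highest at 0.70 with overlap. Slc51a, a subunit of the basolateral organic solute transporter, read 8.61, 8.69 and 8.35 in vehicle and 8.23, 7.44 and 7.63 at 500 mg/kg (difference -0.78, SE 0.23, adjusted p 0.36). Slc13a3 and Slc13a2, the dicarboxylate and citrate carriers, were at -0.44 and -0.47, and Slc16a9, a carnitine and monocarboxylate carrier, was at -0.52. None of these 4 overlapped between the groups (17.3% of all genes did not). Slc7a7, which exports cationic amino acids, read 11.21, 11.78 and 11.38 in vehicle and 11.05, 10.53 and 10.65 when dosed. The main uptake carriers of organic anions, Slc22a6 (OAT1) and Slc22a8 (OAT3), were at -0.25 (95% interval -0.57 to 0.07) and -0.36 (-0.79 to 0.07), with overlapping groups. Pc, the pyruvate carboxylase, read 9.94, 10.17 and 9.94 in vehicle and 9.55, 8.97 and 9.14 when dosed, a difference of -0.80 without overlap (adjusted p 0.36).

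The standard transcripts of tubular injury did not move together. Havcr1 read 4.31, 3.81 and 3.80 in vehicle and 4.00, 4.02 and 3.73 at 500 mg/kg, a difference of -0.06 with a 95% interval of -0.68 to 0.56. Lcn2 was at 0.17 (-0.37 to 0.71) and Clu at -0.04 (-0.40 to 0.33), and none of these 3 intervals reaches a doubling. Spp1 read 9.06, 9.40 and 10.43 in vehicle and 10.38, 11.31 and 10.66 when dosed, a difference of 1.15 (0.15 to 2.16, adjusted p 0.432) with overlap. From the low doses its difference was 0.47 (SE 0.407), and the 1 mg/kg kidneys read 11.12 and 11.68. Over the 33 measured injury genes, 2 were higher and 3 lower at the unadjusted threshold (3% and 7.55% of all genes). The median was -0.03. Umod (0.30), Lrp2, the megalin receptor (-0.03), and Kap (0.00, interval -0.15 to 0.15) had overlapping groups.

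Genes of foreign-compound metabolism and oxidative stress centred near 0. The medians were 0.04 over 28 NRF2 targets, 0.10 over 7 aryl hydrocarbon receptor targets, 0.07 over 17 CAR and PXR targets and -0.04 over 22 genes of alcohol and aldehyde oxidation. Nqo1, the quinone reductase, was at 0.10 (95% interval -0.27 to 0.46), and Hmox1, the heme oxygenase, was at 0.17 (-0.25 to 0.59). Cyp1a1 read 7.36, 5.83 and 8.33 in vehicle and 7.43, 8.16 and 7.46 when dosed, so the whole dosed range lay inside the vehicle range. Gclc (0.46), Pdk4 (0.39) and Pck1 (-0.28) overlapped between the groups, as did Adh1c, an alcohol dehydrogenase, at -0.17. Aldh1a1, a retinal and aldehyde dehydrogenase, was at -0.20 (-0.46 to 0.06) without overlap.

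Some single members stood apart from these medians. Gstm1, a glutathione transferase counted under both NRF2 and CAR, read 8.19, 8.23 and 8.14 in vehicle and 7.72, 7.13 and 7.64 at 500 mg/kg, a difference of -0.69 (SE 0.217, adjusted p 0.364). Cyp2a1, a steroid hydroxylase, read 5.06, 5.30 and 5.21 in vehicle and 5.98, 5.75 and 6.10 when dosed, a difference of 0.76 (SE 0.292, adjusted p 0.406). Each had separate groups, in opposite directions. The 38 measured subunits of oxidative phosphorylation were the narrowest group, from -0.13 to 0.10 with a median of -0.01.

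Stress-response genes did not share a direction. Nupr1, a stress-induced chromatin protein counted under ATF4, read 5.75, 4.85 and 6.15 in vehicle and 6.83, 7.78 and 7.36 at 500 mg/kg, a difference of 1.74 (SE 0.53, adjusted p 0.364). Asns, the asparagine synthetase, was at 0.69 and Ddit4, an mTORC1 inhibitor, at 0.50, each without overlap. On the other side lay Gdf15 (-1.31), Shmt2 (-0.51) and Psph (-0.69), so that the 32 ATF4 genes had a median of -0.06. In the unfolded protein list (22 genes, median 0.03) Dnajb9 was the lowest member, and Hspa5, the main chaperone of the endoplasmic reticulum, was the highest at 0.21. Of 16 p53 targets 12 were below 0 (median -0.13, 61.2% of all genes below 0), among them Mdm2 (-0.28) and Ddb2 (-0.27) without overlap and Cdkn1a (-0.37) with overlap. Of 37 cell cycle genes 30 were below 0 (median -0.22), where 61.2% of all genes were below 0, and Birc5, the survivin gene, was at -0.49 without overlap. The cell cycle median was -0.44, -0.10 and -0.11 without vehicle replicates 1, 2 and 3, ranged from -0.33 to -0.13 without single dosed arrays and was -0.06 against the low doses. Without vehicle replicate 1 Ccnb1, Ccnb2, Cdca3 and Kif23 passed as lower, in a fit where 92 of 14217 named genes did. The mean of the cell cycle list was 5.72 in vehicle replicate 1, against 6.39 and 6.28 in replicates 2 and 3. It was 6.14, 5.76 and 5.89 when dosed, so leaving out replicate 1 widens the difference by construction.

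Mx2, an interferon-induced GTPase, had the lowest difference of all named genes. It read 9.88, 10.11 and 8.91 in vehicle and 9.50, 4.20 and 4.16 at 500 mg/kg, so that its difference of -3.68 (SE 1.53, adjusted p 0.44) came from dosed replicates 2 and 3. RT1-Bb, a class II histocompatibility gene, read 3.93, 3.87 and 8.69 in vehicle and 9.53, 4.18 and 8.32 when dosed. At the other end of the named genes, Ly6al, of the lymphocyte antigen 6 family, read 5.75, 6.33 and 6.76 in vehicle and 9.32, 6.80 and 9.66 when dosed, a difference of 2.31 (SE 0.899, adjusted p 0.411) whose dosed replicate 2 lay next to vehicle. Fst, the activin-binding protein follistatin, read 5.34, 4.33 and 7.50 in vehicle and 7.52, 8.46 and 7.42 when dosed, with overlap. Mx2 and RT1-Bb switched between a low and a high level within a dose group. Of the other interferon genes, RT1-Da (-0.32), Ifit2 (-0.37) and Psmb8 (-0.29) had smaller differences without overlap, and 21 of 27 measured interferon genes were below 0 (61.2% of all genes), with a median of -0.14. The adipocyte list, which marks fat attached to the kidney, had array means of 6.24, 6.82 and 7.39 in vehicle and 6.47, 7.64 and 6.21 when dosed. Its part in the results was not tested.

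**Figure D4:**
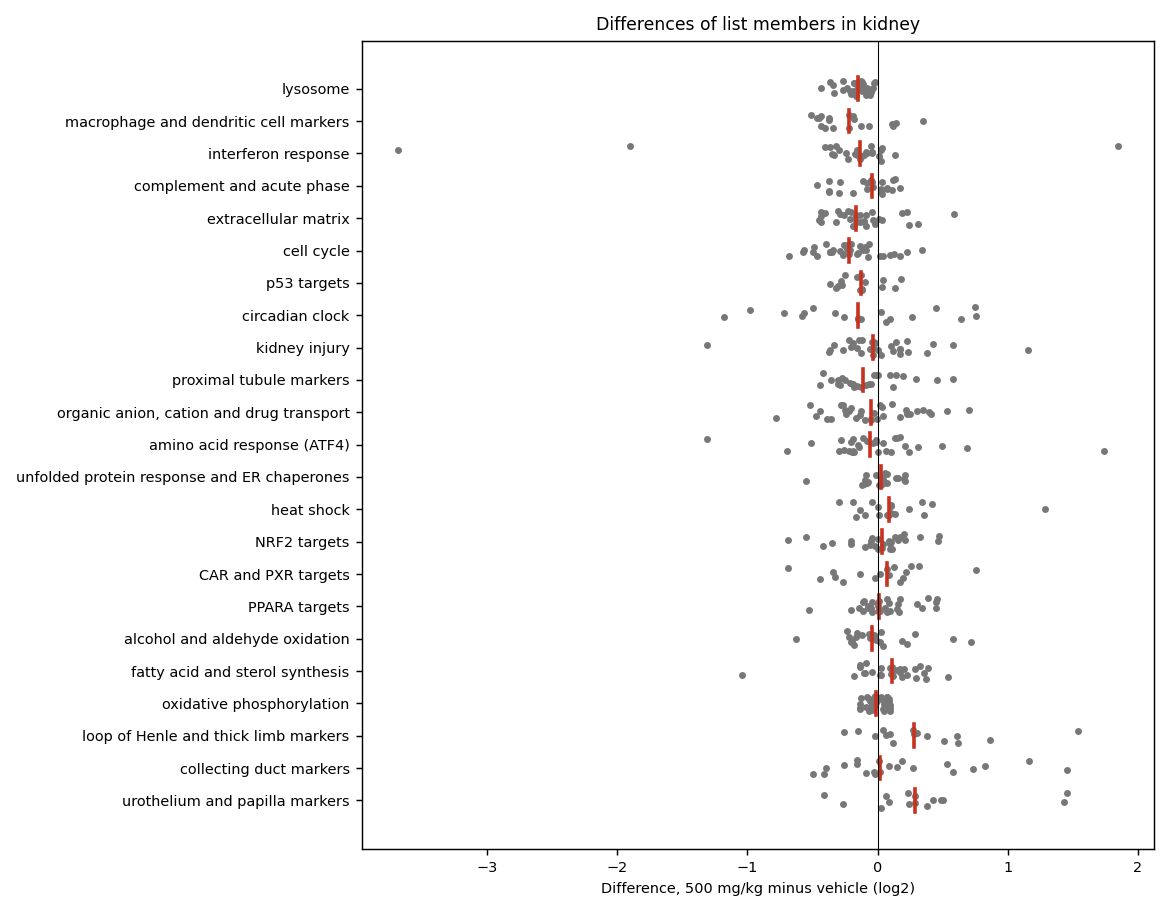
Differences between 500 mg/kg and vehicle kidneys (log2) for the measured members of 23 gene lists, 1 grey point per gene, with the list median as a red bar and the vertical line at 0. The lysosome points all lie left of 0, the oxidative phosphorylation points stay between -0.13 and 0.10, and Mx2 at -3.68 and RT1-Bb at 1.85 stand far from their list.

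The same kidneys were also compared with the 6 kidneys at 0.1, 1 and 10 mg/kg, a difference of means that leaves out the vehicle arrays, although the standard errors come from all 17 kidney arrays. No probe set passed (0 of 31042), the smallest adjusted p was 0.415, and 2532 (8.16%) were below an unadjusted p of 0.05. Of the 8 genes lower against vehicle, Coq10a was at -0.45 from the low doses, whose mean was 7.77 ± 0.085 (SD, n = 6), Dio1 at -0.58, St6galnac4 at -0.51, Dnajb9 at -0.42 and Cks1b at -0.34. Gdf15 was at -0.76, Erf at -0.27 and Castor1 at -0.40, against -1.31, -0.47 and -0.61 from vehicle. The 2 comparisons share the dosed arrays. Of the genes higher against vehicle, Tanc2 was at 0.06 and Ccdc127 at 0.41 from the low doses, less than their 0.70 and 1.25 from vehicle, and the other 6 were between 0.24 and 0.40. With only the 9 arrays compared, 2 probe sets passed. Without the second 1 mg/kg array, the kidney array with the highest adipocyte mean (8.09), 27 probe sets passed, all lower. Without the first 1 mg/kg array, which carried Alb, 1 passed.

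At 300 mg/kg against the same vehicle arrays no probe set passed either (smallest adjusted p 0.999) and 1123 (3.62%) were below an unadjusted p of 0.05. Without vehicle replicate 1, 103 passed. Dio1 read 7.41, 7.38 and 7.32 at 300 mg/kg, below all vehicle arrays and above all arrays at 500 mg/kg (difference from vehicle -0.48, SE 0.131, adjusted p 0.999).

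The kidney difference at 500 mg/kg was set against that in liver, where 55 probe sets passed (0.177%). For the difference of the 2 differences, 9 probe sets passed (0.029%), 6 with the kidney value higher (0.0193%) and 3 lower (0.00966%), and 4 of them stand for a named gene. Trps1, a GATA-type transcriptional repressor, read 8.93, 8.21 and 8.33 in vehicle kidneys and 9.16, 9.45 and 9.49 at 500 mg/kg, while in liver the mean was 4.92 ± 0.264 in vehicle and 4.24 ± 0.313 when dosed (SD, n = 4 each). The kidney difference was 0.87 and that of liver -0.68, which differ by 1.55 (SE 0.302, adjusted p 0.035). From the low doses the kidney difference of Trps1 was 0.28 (SE 0.217), and the 0.1 mg/kg kidneys read 9.44 and 9.39, within the dosed range. Hes6, a helix-loop-helix factor that opposes Hes1, read 10.35, 10.60 and 10.59 in vehicle kidneys and 9.99, 9.92 and 9.81 when dosed. Its kidney difference was -0.61 and its liver difference 0.44, which differ by -1.05 (SE 0.179, adjusted p 0.0116).

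The other 2 genes had the same signs as Hes6. Ccdc85c, a protein of epithelial junctions, read 9.73, 10.34 and 10.06 in vehicle kidneys and 9.48, 9.14 and 9.38 when dosed, and its kidney difference of -0.71 and liver difference of 0.41 differ by -1.12 (adjusted p 0.0298). Slc16a13, a member of the monocarboxylate carrier family, read 9.12, 9.30 and 9.14 in vehicle kidneys and 8.90, 8.74 and 8.71 when dosed. Its kidney difference was -0.40 and its liver difference 0.64, which passed in liver by itself (adjusted p 0.0291), and the 2 differ by -1.04 (adjusted p 0.0316). Without vehicle kidney 1 there were 746 such probe sets, without vehicle kidney 2 there were 0 and without vehicle kidney 3 there were 2. The count was 24, 3 and 4 without dosed kidneys 1, 2 and 3, 5, 2 and 5 without vehicle livers 2, 3 and 4, and 4 and 3 without dosed livers 2 and 4. All 4 genes kept their direction in 21 of 21 alternative fits, and Hes6 passed in 16 of them, Ccdc85c in 10, and Trps1 and Slc16a13 in 9. From the low doses the kidney differences of Hes6, Ccdc85c and Slc16a13 were -0.43, -0.51 and -0.38.

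The 616 probe sets that passed without vehicle replicate 1 were followed across all arrays; they were chosen by the dosed arrays and vehicle replicates 2 and 3, and by leaving out vehicle replicate 1, with the other kidney arrays entering the pooled variance. The 495 higher ones had a mean level of 5.81 and 5.86 in vehicle replicates 2 and 3, 6.92 in replicate 1, and 6.98 to 7.03 at 500 mg/kg. The 11 kidney arrays at 0.1 to 300 mg/kg spanned 6.38 to 6.96. Vehicle replicate 1, whose omission let them pass, lay nearer to the mean of the 500 mg/kg arrays than to that of the other vehicle arrays for 484 of the 495 (97.8%), and so did both 0.1 mg/kg arrays (95.8% and 98.2%) and the third 300 mg/kg array (98.2%). The other kidney arrays at 0.1 to 300 mg/kg ranged from 48.7% (second 300 mg/kg array) to 94.1% (first 1 mg/kg array). The share of vehicle replicate 1 was largely fixed by the choice of the set. Their median difference was 1.09 from the 2 vehicle arrays but 0.19 from the low doses. Xiap, an inhibitor of caspases, read 8.17, 5.87 and 6.32 in vehicle and 8.07, 8.40 and 8.23 when dosed. Nipbl, which loads cohesin, read 8.48, 6.88 and 7.41 in vehicle and 8.41, 8.52 and 8.51 when dosed. Mgll, the monoacylglycerol lipase, read 12.22, 10.62 and 10.95 in vehicle and 12.21, 12.36 and 12.15 when dosed. In each of these genes vehicle replicate 1 lay within the dosed range.

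In the 121 lower probe sets vehicle replicate 1 was again nearer to the 500 mg/kg mean for 89 (73.6%), with 33.9% to 76% in the 11 arrays at the other doses. Their mean level was 6.79, 6.66 and 6.69 at 500 mg/kg, below each of the 14 other kidney arrays, of which vehicle replicate 1 was lowest at 6.90. Vehicle replicates 2 and 3 stood at 7.48 and 7.41 and the lower doses at 6.94 to 7.14. Of the 121, 120 were below the low-dose mean (61.5% of all named genes), with a median difference of -0.34. The dosed arrays that chose the set also enter this comparison. The count, and the place of the dosed arrays below the others, were thus favoured by the choice and do not test it. Gdf15 (adjusted p 0.00125), Nr1d1 (0.00438), Dnajb9 (0.00581), Erf (0.00688) and Tie1 (0.00395) passed in that fit. These values were obtained after leaving out an array that lies near the dosed group, which widens the difference by construction.

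**Figure D5:**
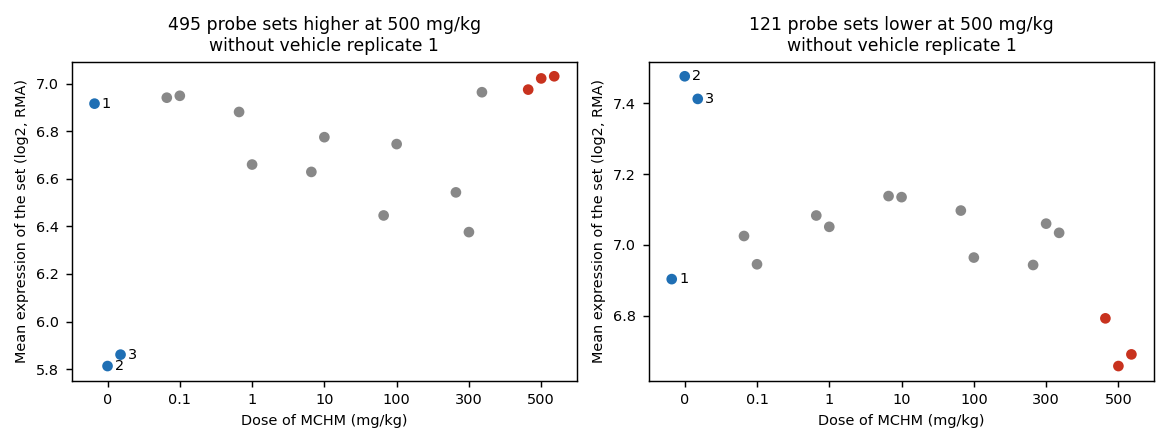
Mean log2 level of the 495 probe sets higher (left) and the 121 lower (right) at 500 mg/kg in the fit without vehicle replicate 1, in each of the 17 kidney arrays against dose (mg/kg, equally spaced), with vehicle in blue (numbered by replicate), 500 mg/kg in red and other doses in grey. On the left vehicle replicates 2 and 3 stand alone at 5.81 and 5.86, and on the right the red points (6.66 to 6.79) lie below all others.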

How the data were processed

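Per the labels, kidney RNA was hybridised to Affymetrix Rat Genome 230 2.0 arrays, and per the submitters' processing notes RMA made the deposited log2 values; no version is given there and no scan batch was known. Of 31099 probe sets, 57 controls were left out. By GEO's platform annotation 20826 had 1 gene symbol, 436 several and 9780 none. A gene stood for its probe set with the highest kidney mean (14217 genes), and provisional names were not printed. With R 4.3.3 and limma 3.58.1, lmFit and eBayes were fitted to 17 kidney arrays in 7 dose groups (total df 14.1 for 95% intervals), with Benjamini-Hochberg adjustment over 31042 probe sets at 0.05; the organ difference used all 44 arrays. The fit was tested on simulated data. The number of arrays limits precision, and p-values measure only the spread between these arrays. Members and lists (44) were chosen with earlier results of these data known. The rule named the 8 genes each way with the smallest p, organ-difference genes past the threshold and watched genes, of which some are not reported here. Other genes were chosen after their values were seen.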

Additional observations from a re-analysis of the deposited data

Results flagged for a closer look

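The kidney and liver differences at 500 mg/kg differed by the test of the difference itself (limma, adjusted p under the threshold) for Trps1 at 1.554, Hes6 at -1.048, Ccdc85c at -1.121 and Slc16a13 at -1.037. In the same genes, 1 liver array at 500 mg/kg stood far from the other 3: Trps1 read 4.704 in the outlying array, and Hes6 read 10.49. Dixon's 95% critical value, used here, is by its definition passed in about 1 of 20 groups of normally distributed values.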

How the results depend on the processing

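Only arrays compared, filter on dim probe sets, further normalization, trended variance and the replicate block left the count for 500 mg/kg against vehicle at 0. It was 424 with array weights and 0 to 616 when single arrays were left out; list members past the threshold numbered 10 and 0 to 19. The count against the low doses was 2 with only the arrays compared and 0 to 27 without single arrays, and that at 300 mg/kg 0 to 103. The organ difference gave 2 probe sets with only the arrays compared, 70 above the median level, 26 with trended variance, 951 with array weights, 3 with the replicate block and 0 to 746 without single arrays. Replicate numbers did not pair the arrays (correlations of deviations -0.038, -0.116 and -0.085), so the block rests on a shared number only. Without single arrays the differences of these genes crossed 0: Havcr1 ranged from -0.147 to 0.11 (also 0.034), Lcn2 from -0.065 to 0.326 (also -0.017), Clu from -0.133 to 0.111 (also 0.005), Lrp2 from -0.064 to 0.009, Kap from -0.028 to 0.027 (also 0.011), Cyp1a1 from -0.158 to 1.09, Pdk4 from -0.091 to 0.691 and Adh1c from -0.416 to 0.048. Kap also turned after a second quantile normalization (0.016). The cause was not tested. None of the 16 genes with the smallest p turned sign, and their adjusted p ran from 0.00125 (Gdf15) to 0.891; each passed in 1 or 2 of 12 or 13 fits, with array weights or without vehicle replicate 1. The alternative for 300 mg/kg was chosen after seeing the data.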
